A study of Mus musculus with 51 samples.

Results

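Nuclear pore and transport receptor genes were chosen by symbol. They are the protein coding genes whose name starts with Nup and a digit, with Kpna or Kpnb, or with Xpo or Ipo and a digit, together with Ranbp1, Ranbp2, Tpr and Tnpo1. This gave 44 of 37525 genes in the deposited RNA tables, of which 20022 are protein coding. The rule uses no measured value, but the members were chosen with earlier results of these data known. All 44 were listed in the tables of 18h, 20h and 22h and of the stem cells, and 41 in the table of 24h, where Ipo13, Nup188 and Xpo5 are not listed. By role they were 6 importin alpha genes, 9 of the importin beta family, 5 exportins, 1 Ran-binding gene, 3 nuclear basket genes, 2 of the central channel, 4 of the cytoplasmic face, 6 of the Y complex, 5 of the inner ring, 1 transmembrane nucleoporin and 2 paralogs of nucleoporins.

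The RNA samples were C57BL/6 mouse embryos, named 2-cell embryos in the labels at each time, in which the nucleolar long noncoding RNA LoNA was knocked out (KO), or control embryos, at 18h, 20h, 22h and 24h. The second system was 2C-like mESC, mouse embryonic stem cells named after the 2-cell embryo, either with LoNA knocked down (KD) or control. Chromatin of 24h embryos was profiled for H3K4me3 and H3K27me3 in LoNA KO and control embryos, and for acetylated nucleophosmin (AcNPM1) also in LoNA KO embryos given a p300 inhibitor. How the KO and KD were made, how many embryos were pooled for a library, and from when the hours are counted are not given in the sources used here. LoNA itself was not matched to a gene ID, so its loss was not checked in these libraries.

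The RNA comparisons rest on 3 libraries per group at 18h, 20h and 22h, with 12077497 to 18286944 counts each, and on 2 per group at 24h and in mESC. At 24h, 28 to 32 of the members had a count in a library against 42 to 44 in the other embryo tables, and mitochondrial transcripts took 12.9% to 19.3% of counts against 1.62% to 9.84%. Markers matched the labels in part: 10 to 12 of 12 genes of the oocyte were detected in every embryo library, at a summed level of 3574 to 12118 CPM (counts scaled to library size), and 10 to 12 of 12 markers of the 2-cell stage, at 263 to 1682 CPM. In mESC all 10 pluripotency markers were detected, while the 2-cell markers summed to 188 to 202 CPM in KD and 221 to 236 CPM in control. In bulk RNA, fewer cells of a kind and less RNA per cell cannot be told apart.

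Nuclear pores are channels through the nuclear envelope, built from scaffold nucleoporins (the Y complex and the inner ring), from channel nucleoporins with phenylalanine-glycine repeats, and from a basket on the nuclear side. Importin alpha binds proteins with a nuclear localisation signal and is carried through the pore by importin beta, encoded by Kpnb1, while exportins such as Xpo1 carry cargo out. The GTPase Ran sets the direction of both. Oocytes and early embryos hold an importin alpha of their own, Kpna7, beside the widely expressed forms.

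The promoters of 4 members are shown because these genes carry the results below: Kpna2 and Nup107 by their change with time, Kpna7 by its difference between embryos and mESC, and Kpnb1 by the strongest H3K4me3 peak. Each sequence is taken from RefSeq (build GRCm38.p6), runs from 250 bases before to 50 bases after the annotated start, 5′ to 3′ on the gene's minus strand, and has in capitals the matches to the motifs named in the next paragraph. Kpna2 lies at chr11:106999476-106999775, Nup107 at chr10:117792656-117792955, Kpnb1 at chr11:97187843-97188142 and Kpna7 at chr5:145009587-145009886.
Kpna2: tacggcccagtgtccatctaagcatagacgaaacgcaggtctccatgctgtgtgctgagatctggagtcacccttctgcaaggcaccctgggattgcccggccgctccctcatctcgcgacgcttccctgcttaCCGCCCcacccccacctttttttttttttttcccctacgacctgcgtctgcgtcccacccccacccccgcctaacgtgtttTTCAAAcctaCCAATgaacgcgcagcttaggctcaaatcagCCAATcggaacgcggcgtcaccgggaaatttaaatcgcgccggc
Nup107: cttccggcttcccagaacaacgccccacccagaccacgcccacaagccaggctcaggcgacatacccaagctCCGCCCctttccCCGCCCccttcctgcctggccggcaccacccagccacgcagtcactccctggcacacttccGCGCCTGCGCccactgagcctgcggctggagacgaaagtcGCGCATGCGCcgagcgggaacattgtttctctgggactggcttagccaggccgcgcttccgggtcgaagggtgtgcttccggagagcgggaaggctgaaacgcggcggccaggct
Kpnb1: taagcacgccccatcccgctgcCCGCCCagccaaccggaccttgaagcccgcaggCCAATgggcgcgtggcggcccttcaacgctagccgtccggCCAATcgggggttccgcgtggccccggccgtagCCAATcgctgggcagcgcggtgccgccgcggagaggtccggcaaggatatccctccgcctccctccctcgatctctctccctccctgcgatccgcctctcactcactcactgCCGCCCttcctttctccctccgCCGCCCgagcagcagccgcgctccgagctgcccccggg
Kpna7: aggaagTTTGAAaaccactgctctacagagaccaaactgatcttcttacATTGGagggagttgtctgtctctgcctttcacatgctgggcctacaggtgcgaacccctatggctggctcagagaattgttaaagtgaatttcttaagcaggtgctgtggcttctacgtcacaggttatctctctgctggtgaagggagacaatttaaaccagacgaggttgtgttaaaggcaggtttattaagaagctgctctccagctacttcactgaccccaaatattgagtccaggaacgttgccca

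RefSeq promoters were matched by symbol for 35 of the 44 members. No sequence was matched for Kpna1, Kpna3, Kpna6, Nup210l, Nup35, Nup43, Nup85, Xpo4 and Xpo7. The members' promoters had a median of 64.3% G and C and 28 CpG dinucleotides in 300 bases, against 58.0% and 16 over 14991 coding promoters. Kpnb1 had 35 CpG, Nup107 27 and Kpna2 24, and Kpna7, with 4, had the fewest among the members. On either strand, the GC box GGGCGG was found in 71.4% of the members' promoters (25 of 35) against 52.2% of all coding promoters, and CCAAT in 21 of 35 against 38.5%. The YY1 motif was found in 11.4% (4: Nup188, Nup205, Nup50 and Nup88) against 1.11%, and the NRF1 motif in 14.3% (5) against 7.54%. TATAAA was found in 8.57% (3) against 10.8%, the ETS motif CCGGAAGT in 8.57% (3) against 6.02%, and TTTGAA, the CHR motif, in 22.9% (8) against 14.3%. The homeodomain motif GGATTA was found in 0 of the 35 members' promoters against 6.19% of all. No motif searched holds another, and the NRF1 motif can match both strands at one place. In the printed sequences Nup107 has the NRF1 motif at 2 places, Kpna2 has CCAAT at 2 places and Kpnb1 at 3, and Kpna7 has CCAAT once and TTTGAA once. These matches describe the letters only.

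Kpna2, an importin alpha that carries classical cargo into the nucleus, was called higher at 22h than at 18h in both genotypes, the largest change among the members called in embryos. At 18h its levels were 453, 270 and 398 CPM in LoNA KO embryos and 845, 768 and 552 CPM in control embryos. At 20h they were 326, 263 and 477 CPM in KO and 252, 594 and 950 CPM in control. At 22h they were 3136, 3133 and 2896 CPM in KO and 3967, 2738 and 3148 CPM in control. In both genotypes every library of 22h lay above every library of 18h and 20h. The log2 fold change of 22h over 18h was 3.03 ± 0.39 (SE) in KO, with an adjusted p of 0.000319 by edgeR's quasi-likelihood test, and 2.18 ± 0.38 in control, with an adjusted p of 0.00682. In KO the call held under each alternative tried, with adjusted p from 0.000201 to 0.00912, and in control it was lost without control 18h replicate 3 (adjusted p = 0.0851, range over the alternatives 0.00608 to 0.0851). The difference between the genotypes in this change was 0.85 ± 0.51, with an adjusted p of 0.919 by edgeR. No member was called for a difference between the genotypes in its change (0 of 44, where 0% of genes were called by edgeR, and 0 members at an unadjusted p under 0.05, where 5.48% of genes were). The gene lies at chr11:106988629-106999541 (mm10, minus strand). Time and deposited table cannot be told apart, since each time is a table of its own. The 12 markers of the 2-cell stage were lower at 22h than at 18h, while Kpna2 was higher. At 22h they summed to 326 to 353 CPM in KO and 263 to 284 CPM in control (11 of 12 with a count, Tdpoz4 at 0). At 18h they summed to 745 to 1682 CPM in KO and 621 to 1193 CPM in control (12 of 12). In KO the mitochondrial share of a library was 1.90% to 2.49% at 22h and 3.99% to 9.84% at 18h, without overlap. In control it was 1.62% to 2.99% at 22h and 2.86% to 5.705% at 18h, ranges that overlap. The part of these markers and of this share in the changes with time was not tested.

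**Figure D1:**
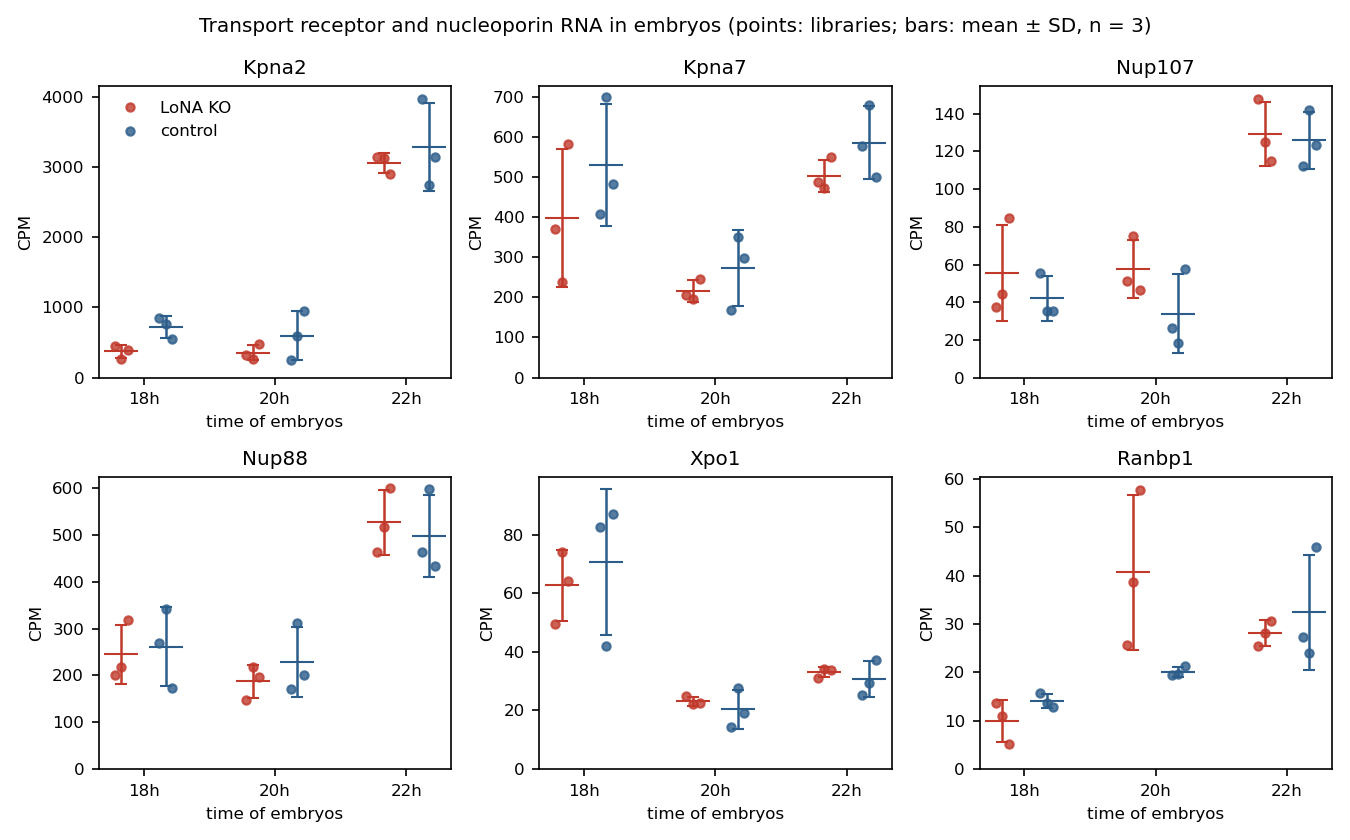
RNA level in CPM of 6 members in LoNA KO (red, left) and control (blue, right) embryos at 18h, 20h and 22h; points are libraries, and bars give the mean and SD of 3 libraries. Kpna2 averaged 3055 CPM in KO and 3284 CPM in control at 22h, and 374 CPM in KO and 722 CPM in control at 18h.

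Few other members were called between 18h and 22h. At an unadjusted p under 0.05 by edgeR there were 11 of 44 members and 2506 of 18992 genes in control. In KO there were 14 of 44 members and 3576 of 18992 genes. In control embryos 2 of the 44 members were called higher at 22h, Kpna2 and Nup107, and 0 lower, where 1.03% of 18992 genes were called higher and 0.553% lower. Nup107, a scaffold nucleoporin of the Y complex (chr10:117750621-117792705, mm10), was at 112, 142 and 124 CPM in control at 22h and at 55.7, 35.1 and 35.3 CPM at 18h, a log2 fold change of 1.58 ± 0.39 with an edgeR adjusted p of 0.0411. The groups did not overlap, but the adjusted p was 0.0628 to 0.241 when any 1 control library of these times was left out. In KO embryos Nup107 was at 148, 125 and 115 CPM at 22h and at 37.7, 44.2 and 84.6 CPM at 18h, also without overlap. In KO embryos 3 members were called higher at 22h and 0 lower, where 2.5% of genes were called higher and 1.63% lower. They were Kpna2, Ranbp1 and Nup88.

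Ranbp1, which binds Ran-GTP and helps its hydrolysis in the cytoplasm, was at 25.4, 28.2 and 30.7 CPM in KO at 22h and at 13.8, 11.03 and 5.14 CPM at 18h. Its log2 fold change was 1.49 ± 0.40, with an edgeR adjusted p of 0.0399. Nup88, a nucleoporin of the cytoplasmic face, was at 463, 518 and 600 CPM in KO at 22h and at 200, 218 and 318 CPM at 18h. Its log2 fold change was 1.10 ± 0.30, with an edgeR adjusted p of 0.0417. For both genes the 22h libraries lay above all of 18h, but both calls lay near the threshold and were lost when most single libraries were left out. Ranbp1 kept its call only without KO 18h replicate 1 (edgeR adjusted p = 0.0388), and reached 0.0860 to 0.153 without any other. Nup88 kept its call only without KO 18h replicate 3 (0.0410), and reached 0.0747 to 0.205 without any other. Both calls were also lost with DESeq2's size factors in edgeR (adjusted p = 0.0663 for Ranbp1 and 0.0659 for Nup88) and in KO libraries alone (0.100 and 0.0557), and that of Ranbp1 with a replicate block (0.0602). With those factors the median of all genes in this contrast shifts by -0.13 on the log2 scale, which leaves Kpna2 called higher and adds Kpna3 as lower. Both genes have another gene on the opposite strand at their position, and whether counting used strand is not given in the sources used here.

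The 22h libraries stood above all 18h libraries for 10 of the 44 members in control (11.1% of all genes) and for 10 in KO (15.8% of all genes). They stood below for 6 members in control (12.3% of all genes) and for 6 in KO (10.5%). Kpna2, Nup107, Nup133, Nup43, Nup88, Nup93 and Ranbp1 stood above in both genotypes, and Kpna3, Nup153 and Xpo1 below in both. The median log2 fold change of the members was 0.06 in control and 0.08 in KO, against -0.08 and 0.05 over all genes tested. These medians and counts describe the members, and were not tested against other genes.

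Between 18h and 20h the member called in control embryos was Xpo1, the exportin of proteins with a leucine-rich export signal (chr11:23256041-23298249, mm10, plus strand). In control embryos Xpo1 was at 14.5, 27.5 and 19.1 CPM at 20h and at 82.6, 41.97 and 87.1 CPM at 18h. In KO embryos it was at 24.9, 22.2 and 22.4 CPM at 20h and at 49.7, 73.9 and 64.3 CPM at 18h. The 20h libraries lay below all of 18h in both genotypes. No test of 20h over 18h was run within KO embryos, so a call in control only says nothing of KO. In control the log2 fold change was -1.79 ± 0.34, with an edgeR adjusted p of 0.0265, and the call rested on some of the libraries: the adjusted p was 0.121 without control 18h replicate 1, 0.107 without control 18h replicate 3, 0.12 without control 20h replicate 1 and 0.0698 without control 20h replicate 3. It was also lost with a replicate block (edgeR adjusted p = 0.0524) and in control libraries alone (0.0595). This was 1 of 44 members called lower and 0 called higher, where 0.232% of all genes were called lower and 0.521% higher. The 20h control libraries lay below all of 18h for 11 members (11.7% of all genes) and above for 4 (9.77% of all genes), and the median log2 fold change was -0.40 for the members and -0.07 for all genes.

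No member was called between LoNA KO and control embryos at any time by edgeR's quasi-likelihood test. At 18h 0 of 44 were called where 0.00649% of genes were, at 20h 0 of 43 where 0.0138% were, at 22h 0 of 44 where 0.00656% were, and at 24h 0 of 26 where 0% were. At an unadjusted p under 0.05 there were 2 members at 18h (5.14% of all genes), 1 at 20h (3.66%), 0 at 22h (3.15%) and 2 at 24h (5.16%). DESeq2 called 0 members at 18h, where it called 34 genes higher and 69 lower, 0 at 20h (9 and 14 genes) and 0 at 22h (5 and 1 genes). At 24h DESeq2 called 3 members higher, where 5.36% of all genes were, and 3 lower, where 8.15% were. With the KO effect averaged over 18h, 20h and 22h, 0 of 44 members were called where 0.00527% of genes were, and 5 had an unadjusted p under 0.05, where 7.89% of genes had. The median log2 fold change of the members was -0.03 at 18h, -0.10 at 20h, 0.00 at 22h and 0.16 at 24h, against -0.02, -0.03, -0.00 and 0.02 over all genes tested.

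Kpna2 had the smallest p at 18h. Its 3 KO libraries lay below its 3 control libraries at that time, with a log2 fold change of -0.92 ± 0.30 and an edgeR adjusted p of 0.794. At 20h the change was -0.81 ± 0.46 (adjusted p = 0.998) and the groups overlapped, as they did at 22h. Averaged over the 3 times it was -0.60 ± 0.21, with an adjusted p of 0.551 by edgeR. Tnpo1, the carrier of proteins with a proline-tyrosine signal, was at 130, 467 and 543 CPM in KO at 18h and at 201, 179 and 183 CPM in control. One KO library lay below all controls and the other two above, and the adjusted p was 0.967 by edgeR.

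Other members with small unadjusted p at 18h were Nup188 of the inner ring (16.8, 16.8 and 7.85 CPM in KO, 25.9, 41.2 and 17.8 CPM in control), Nup37 of the Y complex and Nup50 of the basket. Nup50 was at 172, 203 and 175 CPM in KO and at 111, 144 and 149 CPM in control, and was the member whose KO libraries all lay above control at 18h. At that time 1 member stood above control without overlap (5.22% of all genes) and 2 below (7.6%), Kpna2 and Nup188.

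At 20h Ranbp1 was at 25.7, 38.7 and 57.7 CPM in KO and at 19.6, 19.6 and 21.3 CPM in control. Its log2 fold change was 0.97 ± 0.42, with an edgeR adjusted p of 0.998. Ipo9, an importin of histones, was at 35.7, 48.7 and 23.6 CPM in KO and at 18.9, 22.6 and 19.8 CPM in control (adjusted p = 0.998 by edgeR). These 2 stood above control without overlap (5.16% of all genes), and Nup133 and Nup205 stood below (4.7%). Neither gene kept this order at 22h, where Ranbp1 was at 25.4 to 30.7 CPM in KO and 24.0 to 45.9 CPM in control, and Ipo9 at 32.1 to 44.6 CPM in KO and 24.8 to 49.2 CPM in control.

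At 22h 6 members stood above control without overlap (4.87% of all genes), Ipo5, Ipo8, Nup153, Nup155, Nup210 and Nup35, and 1 below (4.28%), Kpna3. Among them Nup210 had very low levels, at 1.13 to 2.23 CPM in KO and 0 to 1.05 CPM in control. Nup35, an inner ring nucleoporin that binds membranes, was at 703, 652 and 938 CPM in KO and at 590, 634 and 379 CPM in control, with a log2 fold change of 0.51 ± 0.26. Nup153, a basket nucleoporin, was at 110, 100 and 116 CPM in KO and at 74.1, 72.9 and 94.8 CPM in control. Nup98, a nucleoporin placed here with the cytoplasmic face, was at 174, 366 and 363 CPM in KO and at 586, 252 and 831 CPM in control, where the groups overlapped. Every member's edgeR adjusted p at 22h rounded to 1.

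At 24h the 2 libraries of a group differed widely from each other. Kpna2 was at 0.976 and 197 CPM in KO and at 486 and 101 CPM in control, and Kpna7 at 33.9 and 11.7 CPM in KO and at 393 and 8.43 CPM in control. Ranbp2, the large nucleoporin of the cytoplasmic filaments, had 3275 and 849 counts in KO and 0 and 1 in control; Kpna1 had 734 and 1954 counts in KO and 1 and 1 in control. Nup160 of the Y complex had 82 and 330 counts in KO and 0 and 0 in control. Each of these 3 genes had an edgeR adjusted p of 0.826. With Nup153 and Nup50 they were the 5 tested members that stood above control without overlap, where 16.1% of all genes did. Of the tested members 0 stood below, where 17.1% of all genes did. The filter on low counts bears on this split. Ranbp2, Kpna1 and Nup160 passed it with counts almost only in KO. Ipo11, Kpnb1 and Nup43 stood below control but did not pass it, and Tpr stood above without passing it. Ipo11 had 0 and 0 counts in KO and 548 and 1 in control. Nup43 had 0 and 0 in KO and 661 and 1 in control. The common biological coefficient of variation was 158% at 24h, against 55.5% to 77.5% at the other times. Markers of trophectoderm summed to 0.0697 and 6.40 CPM in KO and to 99.7 and 107 CPM in control at 24h. Of these genes 1 of 8 had a count in each KO library and 3 of 8 in each control library. Cdx2, Elf5, Krt7, Krt8 and Tead4 were at 0 in all libraries. Markers of cumulus cells summed to 2.16 and 81.8 CPM in KO and to 0 and 0.0675 CPM in control. At most 1 of 12 cumulus genes had a count in any library. Amh, Amhr2, Foxl2, Fshr, Has2, Hsd3b1, Inha, Inhba and Star were at 0 in all libraries. Markers of the oocyte summed to 9123 and 6462 CPM in KO and to 3574 and 4618 CPM in control at 24h, without overlap (10 of 12 genes with a count in each library, Khdc3 at 0 in all). The trophectoderm and cumulus sums rest on few genes. The part of these markers in the values was not tested.

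**Figure D2:**
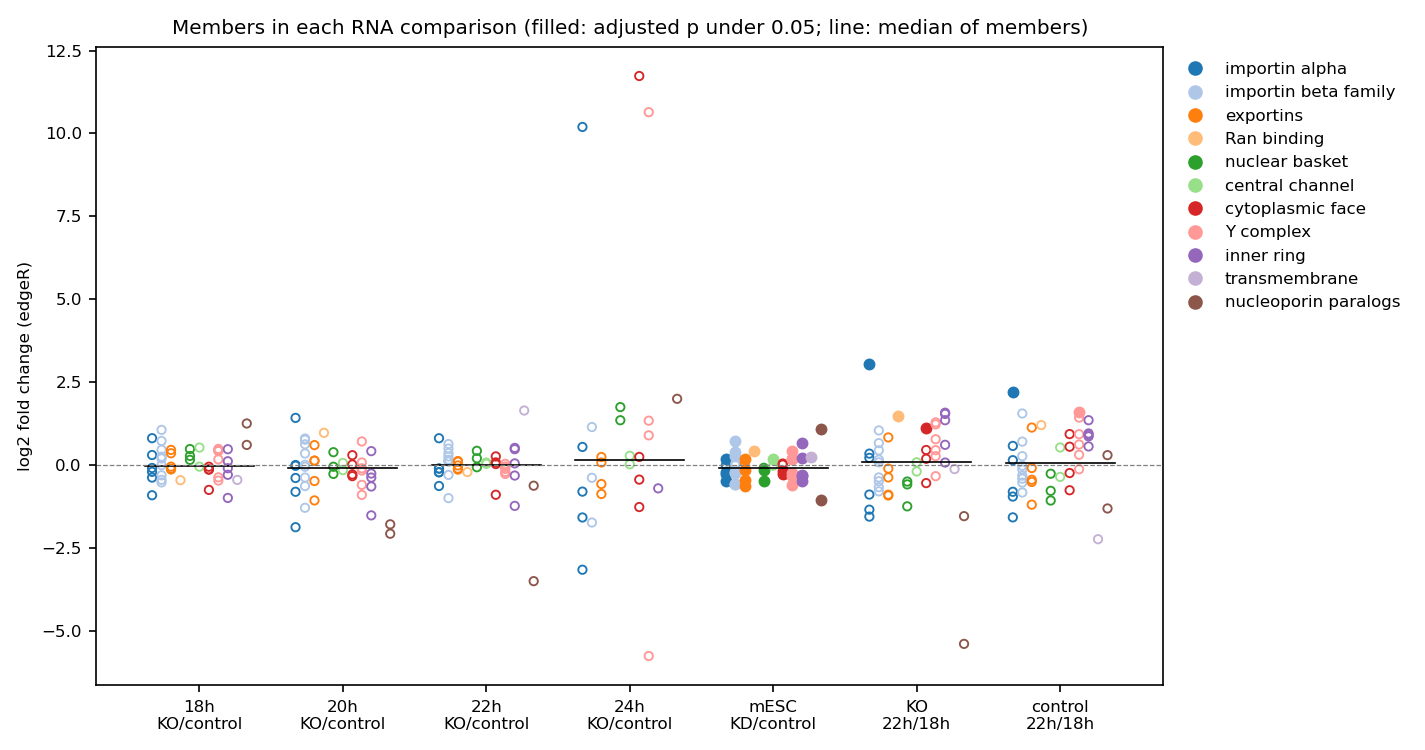
Log2 fold change by edgeR of each tested member in 7 RNA comparisons, coloured by role; filled points passed an adjusted p of 0.05, open points did not, and lines are medians of the members. Between KO and control embryos every point is open, and the points of 24h spread from -5.77 to 11.73.

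In 2C-like mESC most members differed between LoNA KD and control, by small amounts and in both directions, as most genes did. Of 43 members tested, 14 were called higher in KD where 38.9% of 16406 genes were, and 21 lower where 35.3% were. The median log2 fold change was -0.09 for the members and 0.01 for all genes, and 2 of the 43 passed a fold of 2. The 2 columns of a group correlated at 0.998 in log2 CPM, above the 0.99 at which columns of 24h were summed. Summing them would leave 1 library per group and no test, so they were kept apart, and each p measures only the difference between columns this alike, and small changes pass it. In the same libraries the pluripotency markers summed to 2697 and 2757 CPM in KD and to 5474 and 5485 CPM in control, and markers of fibroblasts to 1473 and 1498 CPM in KD and to 1038 and 1043 CPM in control, with 10 of 10 genes of either list detected. Markers of trophectoderm summed to 54.8 to 55.6 CPM in KD and to 104.2 to 104.5 CPM in control. Those of cumulus cells summed to 35.2 to 39.1 CPM in KD and to 55.4 to 60.7 CPM in control. Those of the oocyte summed to 43.5 to 47.5 CPM in KD and to 64.6 to 64.9 CPM in control. Markers of sperm and testis were near 0 and also lower in KD. The part of these markers in the members' changes was not tested. Scaling by the upper quartile would move all changes here by -0.19 on the log2 scale, which is more than the size of the calls for Kpna2, Nup62, Nup85, Nup43 and Xpo1, so their direction depends on the scaling.

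Of the 9 importin beta family genes, 4 fell and 3 rose. Kpnb1, importin beta itself, was at 1128 and 1103 CPM in KD and at 1668 and 1640 CPM in control, a log2 fold change of -0.57 ± 0.04 with an edgeR adjusted p of 4.54e-12. Ipo5, an importin of ribosomal proteins and histones, was at 620.0 and 619.9 CPM in KD and at 952 and 912 CPM in control, a log2 fold change of -0.59 ± 0.04 with an edgeR adjusted p of 4.84e-12. Ipo8 and Ipo9 were also called lower, while Ipo13, Ipo4 and Ipo11 were called higher and Ipo7 and Tnpo1 in neither direction. Ipo13, which also exports cargo, was at 40.9 and 44.04 CPM in KD and at 25.6 and 25.4 CPM in control, a log2 fold change of 0.73 ± 0.08 with an edgeR adjusted p of 1.55e-08. Of the importin alpha genes, Kpna2 was higher under the scaling used (378 and 383 CPM in KD, 335 and 334 CPM in control) and Kpna1, Kpna3 and Kpna6 were lower, Kpna6 by -0.48 ± 0.04.

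Of the exportins, Xpo7, Xpo4 and Xpo6 were called lower and Xpo1 higher under the scaling used. Xpo7 was at 122 and 123 CPM in KD and at 192 and 185 CPM in control, a log2 fold change of -0.62 ± 0.04 with an edgeR adjusted p of 2.06e-11. Xpo1 was at 626 and 597 CPM in KD and at 550 and 543 CPM in control, a log2 fold change of 0.16 ± 0.04 with an edgeR adjusted p of 0.000627. Ranbp1 was higher, at 418 and 423 CPM in KD and at 305 and 323 CPM in control (log2 fold change 0.42 ± 0.04, edgeR adjusted p = 3.29e-09).

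In the Y complex Nup107 was called higher, Nup43 and Nup85 were called higher under the scaling used, and Nup133, Nup160 and Nup37 were called lower. Nup107 was at 241 and 244 CPM in KD and at 179.8 and 179.8 CPM in control (0.43 ± 0.04, edgeR adjusted p = 2.42e-09). Nup160 was at 169 and 156 CPM in KD and at 257 and 239 CPM in control (-0.61 ± 0.05, edgeR adjusted p = 1.17e-10). In the inner ring Nup35 and Nup93 were called higher, and Nup155, Nup188 and Nup205 lower. Nup35 was at 51.4 and 55.8 CPM in KD and at 35.1 and 32.5 CPM in control (0.66 ± 0.07, edgeR adjusted p = 2.71e-08), and Nup188 at 211 and 218 CPM in KD and at 304 and 290.1 CPM in control (-0.47 ± 0.04). No group overlap was seen for these genes, as for 38 of the 43 members tested, of which 16 stood above control (44.2% of all genes) and 22 below (42.4% of all genes).

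Both basket genes with a call, Nup153 and Tpr, were lower. Nup153 was at 198 and 185 CPM in KD and at 274 and 262 CPM in control (-0.48 ± 0.04, edgeR adjusted p = 1.30e-09), and Nup50 did not pass the test (142 and 139 CPM in KD, 146 and 152 CPM in control, edgeR adjusted p = 0.0778). Nup214 and Nup98 of the cytoplasmic face were called lower, and Nup88 and Ranbp2 passed in neither direction. In the channel Nup62 was called higher and Nup54 was not called. Nup210, the transmembrane nucleoporin, was higher at 146 and 144 CPM in KD, against 124 and 122 CPM in control (0.23 ± 0.04). The largest changes were in the paralogs, whose levels were low: Nup62cl was at 12.3 and 10.6 CPM in KD and at 24.2 and 23.6 CPM in control (-1.06 ± 0.10, edgeR adjusted p = 7.17e-09). Nup210l had 28 and 38 counts in KD and 22 and 10 in control (1.08 ± 0.38, edgeR adjusted p = 0.0140), a call lost with DESeq2 (adjusted p = 0.145), with no filter on low counts (0.101) and without KD replicate 1 (0.0548), KD replicate 2 (0.196) or control replicate 2 (0.195).

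**Figure D3:**
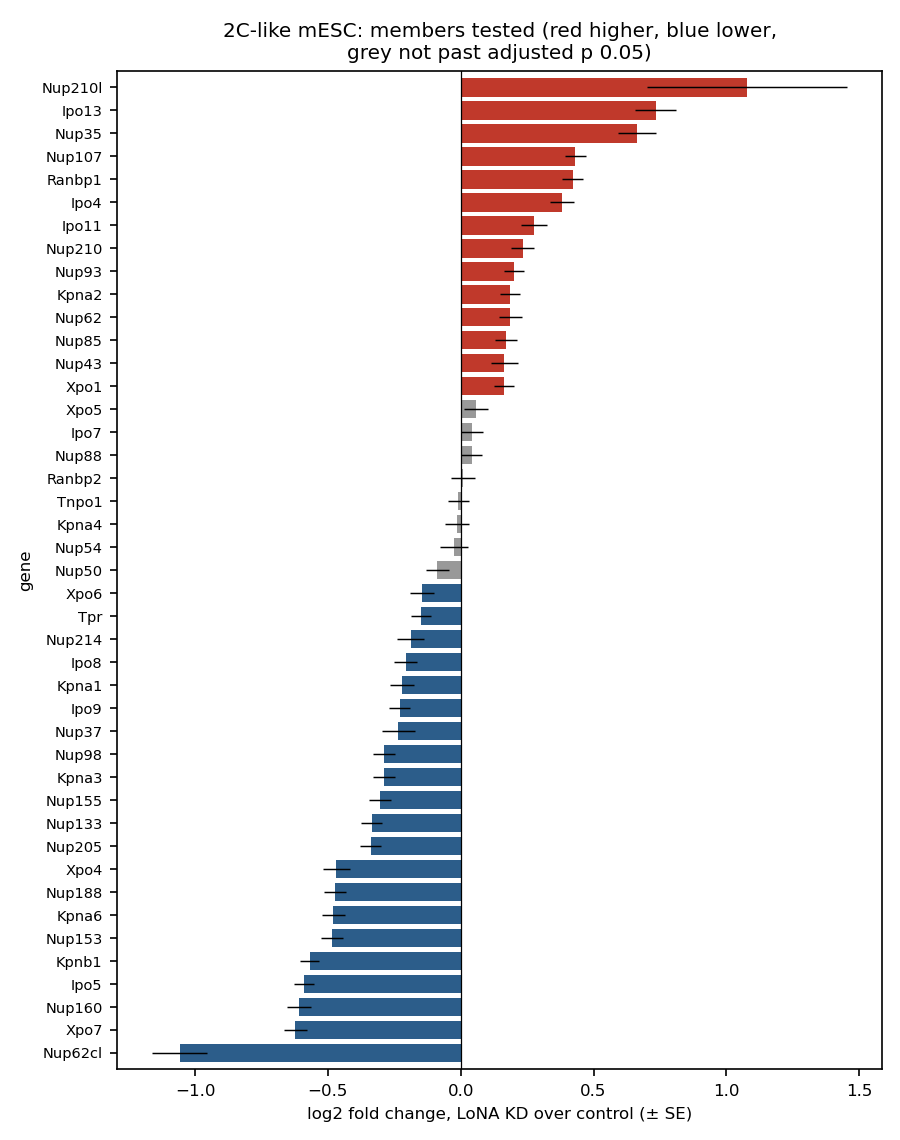
Log2 fold change of LoNA KD over control in 2C-like mESC for the 43 members tested, with SE from edgeR; red bars were called higher, blue bars lower, and grey bars did not pass an adjusted p of 0.05. There are 14 red, 21 blue and 8 grey bars, from Nup62cl at -1.06 to Nup210l at 1.08.

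A list of 28 further genes of the pathway, without a symbol of the kinds above, was read from the same fits. In mESC 12 of 28 were called higher, where 38.9% of genes were, and 8 lower, where 35.3% were. The calls for Nxf1, Phax, Ranbp10, Ranbp3 and Rangap1, at 0.11 to 0.19 on the log2 scale, are no larger than the shift of the other scaling, so their direction depends on it too. Xpot, the exportin of tRNA, rose by 0.67 ± 0.04 and Ran itself by 0.36 ± 0.04, and Seh1l of the Y complex was at -0.76 ± 0.05 and Tnpo3, an importin of splicing factors, at -0.61 ± 0.04, each called by edgeR. Between KO and control embryos 0 of these genes were called at any time, of 28, 27, 27 and 17 tested at 18h, 20h, 22h and 24h. With time 3 were called higher at 22h in KO, where 2.5% of genes were, and 1 in control, where 1.03% were. In both genotypes 0 were called lower, where 1.63% of genes were in KO and 0.553% in control. Nxf1, the export receptor of mRNA, was called in both: it averaged 112 ± 19.3 CPM in KO at 22h and 29.8 ± 12.2 CPM at 18h, and 147 ± 57.9 CPM in control at 22h and 42.9 ± 4.41 CPM at 18h (SD, n = 3 libraries each). Its log2 fold change was 1.91 ± 0.35 in KO and 1.77 ± 0.35 in control, with edgeR adjusted p of 0.00536 and 0.0134. The other 2 in KO were Ranbp3, a cofactor of Xpo1, and Snupn, the importin adaptor of small nuclear ribonucleoproteins.

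Kpna7 and Kpna2 were lower in mESC than in embryos, and most other importins and exportins were higher. Tables were scaled separately, so this is a description, and control mESC was set beside control embryos of 22h. The mESC columns lay above all 22h libraries for 30 of the 44 members, where 55.3% of genes did, and below for 10, where 29.4% of genes did; the median ratio was 4.99 for the members and 1.95 for all genes. Kpna7 had 1 and 1 counts in control mESC (0.0573 CPM on average) and was at 576, 680.0 and 499.5 CPM in control 22h embryos. Kpna2 was at 335 and 334 CPM in mESC and at 3967, 2738 and 3148 CPM in embryos.

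Kpnb1, most importins of its family and the exportins had the opposite order. Kpnb1 was at 1668 and 1640 CPM in mESC and at 54.6, 46.7 and 55.9 CPM in embryos. Ipo7, an importin of ribosomal proteins, averaged 444 CPM in mESC and 3.20 CPM in embryos, and Kpna4, an importin alpha, 146 CPM in mESC and 1.35 CPM in embryos. Xpo1 averaged 546 CPM in mESC and 30.7 CPM in embryos. Nup210 averaged 123 CPM in mESC and 0.544 CPM in embryos. Scaffold genes went both ways: Nup205 averaged 454 CPM in mESC and 11.6 CPM in embryos, and Nup35 33.8 CPM in mESC and 534 CPM in embryos. The levels of Ipo8, Nup43, Nup62 and Nup210l overlapped between the cells.

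**Figure D4:**
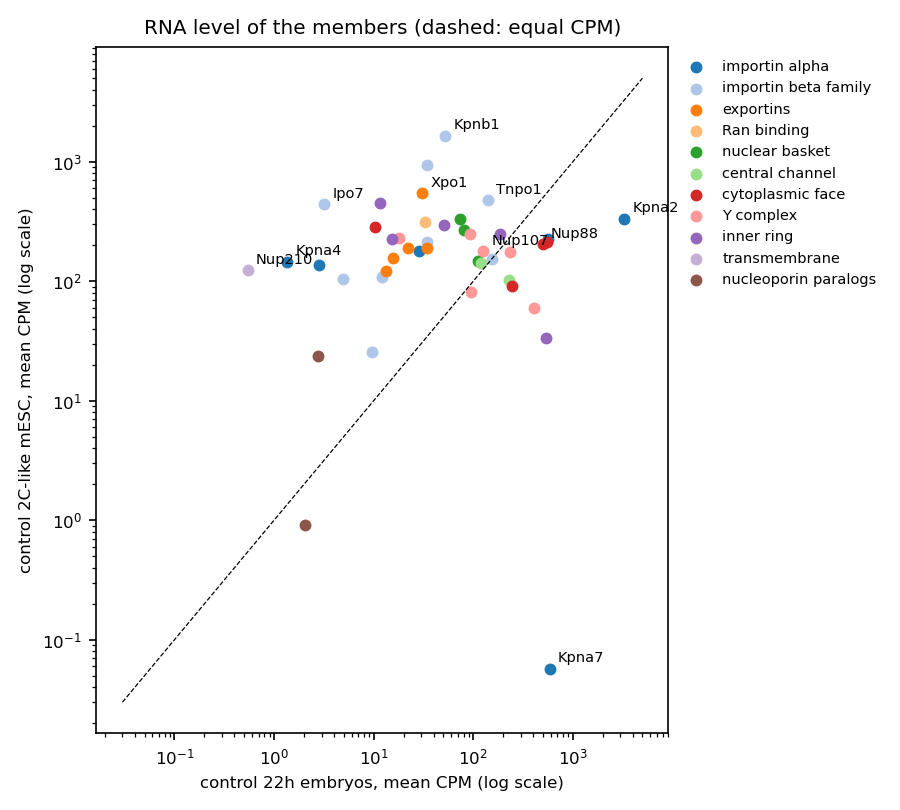
Mean CPM of each member in control 2C-like mESC (vertical, log scale, 2 columns) against control 22h embryos (horizontal, log scale, 3 libraries), coloured by role, with a dashed line at equal CPM. Kpna7 lies far below the line at 0.0573 CPM in mESC, Kpna2 below it at 334 CPM in mESC, and Kpnb1 and Ipo7 above it at 1654 and 444 CPM in mESC.

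At 24h, 41 of the 44 members had an H3K4me3 peak, a mark of active promoters, within 2000 bases of the start given in the RNA tables. This is 93.2% of the members, where 72.6% of 19983 coding genes had one, and 84.3% of the 12758 coding genes with at least 60 counts over the 22h libraries, which all 44 members passed. Ipo4, Kpna1 and Nup210l had none, and their nearest peaks lay 2077, 2637 and 23464 bases away. The RefSeq start of Ipo4 lies 2211 bases from the deposited one and inside its nearest peak, which had 8.08 RPM in KO and 11.97 RPM in control (log2 ratio -0.57) and is not among the peaks counted below. Values are the authors' RPM, the reads of a peak scaled to total reads, with 1 value per condition and no replicate. The 47 peaks of the 41 members had a median of 16.1 RPM in KO and 17.5 RPM in control, against 11.4 and 12.4 RPM over 15648 promoter peaks of coding genes. In the tables of both histone marks the columns carry initials, and were read as KO and control from the direction of the ratio and the table's title.

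No member's H3K4me3 peak passed a fold of 2 in either direction, where 0.0% of promoter peaks were higher in KO and 0.0383% lower. The log2 ratios ran from -0.46 to 0.30, with a median of -0.09, against -0.12 over all promoter peaks. Of the members' peaks 32 of 47 were lower in KO. The negative median over all promoter peaks means that most of those were lower in KO too. The strongest peaks were those of Kpnb1 (chr11:97187791-97188952, 36.6 RPM in KO and 40.0 RPM in control), Nup188 (chr2:30285462-30286935, 33.03 RPM in KO and 37.6 RPM in control) and Nup133 (chr8:123948325-123950631, 33.7 RPM in KO and 34.2 RPM in control). The Kpna2 peak (chr11:106998408-106999797), which holds its start, had 16.9 RPM in KO and 19.1 RPM in control. Kpna3 had the highest ratio, with 17.4 RPM in KO and 14.1 RPM in control, a ratio of 1.23 with a 95% exact interval of 1.12 to 1.35 that covers counting error only.

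The lowest ratio, 0.726 (0.633 to 0.831), was that of the peak counted for Kpna7, with 6.67 RPM in KO and 9.19 RPM in control. This peak (chr5:145083641-145084526) also holds the start of Arpc1a, a subunit of the actin-nucleating Arp2/3 complex. The start of Kpna7 in RefSeq, whose promoter is printed above with its 4 CpG, lies 74394 bases away and 43253 bases from the nearest H3K4me3 peak. In the RNA tables its interval, chr5:144983519-145084030, also overlaps Arpc1a. In all, 11 of the 41 members shared a peak with the start of another coding gene, so the reads of such a peak cannot be given to one gene. Among them were Nup188, with one of the strongest peaks, with Dolk, Nup62 with Atf5 and Il4i1, Ranbp1 with Trmt2a, and Nup98 with Pgap2. Of the 35 members with a RefSeq promoter, 32 had their RefSeq start inside an H3K4me3 peak, Kpna2, Nup107 and Kpnb1 among them.

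H3K27me3, the mark set by Polycomb repressive complex 2, had a peak within 2000 bases of the start at 0 of 44 members, where 17.8% of coding genes had one, and 14.5% of those with 60 counts at 22h. AcNPM1 had one at 0 of 44 in the table of KO and control embryos, where 15.8% of coding genes had one and 12.8% of those with 60 counts. In the table of KO embryos with and without the p300 inhibitor it was again 0 of 44, where 18.3% of coding genes had one and 15.4% of those with 60 counts. No peak of these 3 tables lay within 5000 bases of a member's start either. Within the whole gene or 2000 bases of its ends, 2 of 44 members, Ipo13 and Kpna7, had an H3K27me3 peak, where 26.0% of coding genes did. For AcNPM1 it was the same 2 in the comparison with the inhibitor, where 26.2% of coding genes did. It was 0 members in that of KO and control, where 23.0% did. The median distance from a member's start to the nearest peak was 86994 bases for H3K27me3, 120701 bases for AcNPM1 in the KO and control table, and 79409 bases in the inhibitor table.

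The nearest H3K27me3 peaks were 7595 bases from the start of Ipo13 (1.30 RPM in KO and 1.52 RPM in control) and 8218 bases from that of Kpna2 (1.95 RPM in KO and 1.35 RPM in control). The nearest AcNPM1 peak in the inhibitor table was 7478 bases from the start of Ipo13, with 1.35 RPM with the inhibitor and 1.76 RPM in KO without it. Among the 14507 coding genes with an H3K4me3 promoter peak, 23.6% also had an H3K27me3 peak and 21.1% an AcNPM1 peak, and among the 41 members with one it was 0.

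**Figure D5:**
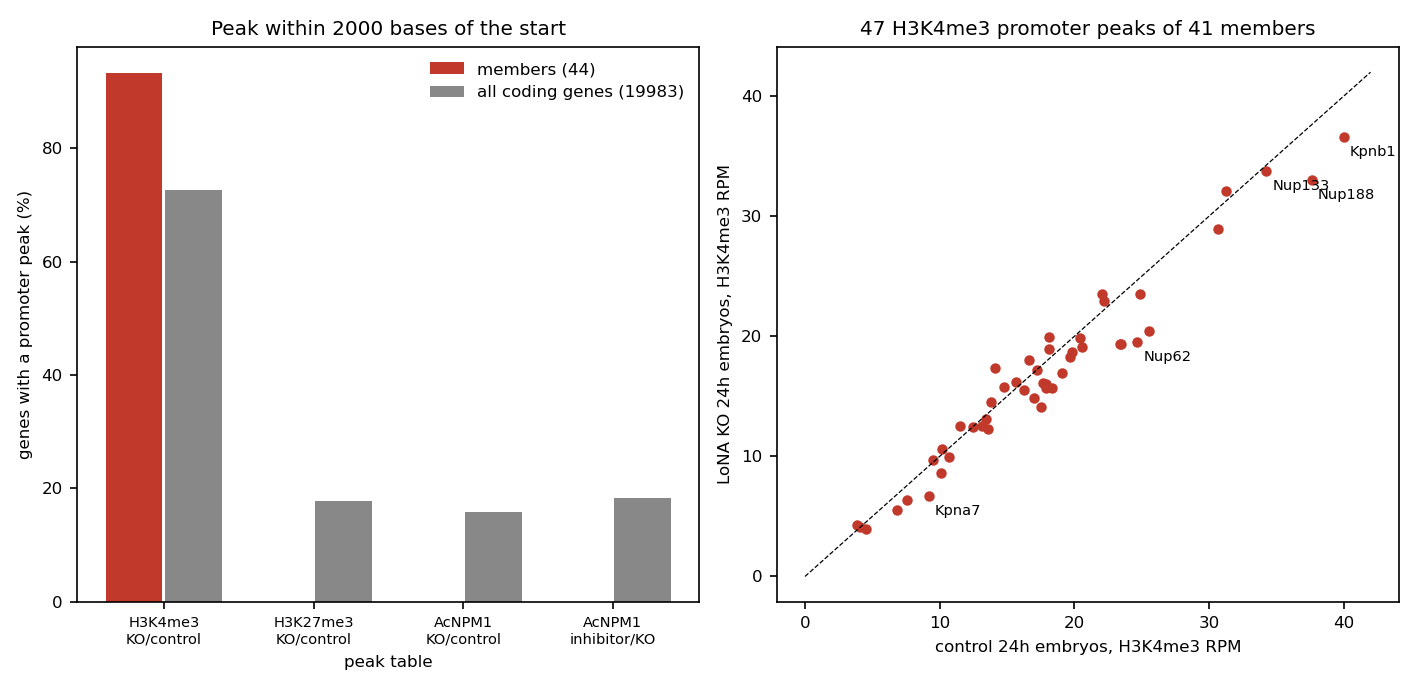
Left, percent of the 44 members (red) and of 19983 coding genes (grey) with a peak within 2000 bases of the start, for the 4 peak tables; the members stand at 93.2% for H3K4me3 and at 0 for the others. Right, H3K4me3 RPM in LoNA KO (vertical) against control (horizontal) 24h embryos for the 47 promoter peaks of members, with a dashed line at equal RPM.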

How the data were processed

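RNA of embryos and 2C-like mESC and chromatin of 24h embryos were analysed from the deposited tables. For RNA the authors deposited unnormalized counts by gene, with mm10 positions. HTSeq 0.6.0, HISAT2 2.1.0 and Bowtie2 2.2.3 are listed for them in the submitters' processing notes. The authors also deposited a mean signal per gene, and a fold change as a ratio or, at 24h, on the log2 scale, not used for results here. The deposited peak tables hold read counts, RPM and the authors' log2 ratio per peak, and total reads per condition as another constant column. MACS2 2.1.1, Bowtie2 2.1.0 and bcl2fastq 2.2 are listed for these. The design text of the series names H3K27ac where samples and table name H3K27me3, and the samples' name is used. Recomputed RPM differed from the deposited RPM by at most 5e-05. Whether the 3 labelled AcNPM1 samples of a group were pooled is not stated, and the peak tables give 1 value per condition.

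Each group has 3 columns at 18h, 20h and 22h (4 samples labelled) and 2 in mESC (3 labelled); no column was tied to a labelled number, so replicate numbers follow the columns' order in the tables. At 24h, 8 columns formed 4 pairs (Pearson r of log2(CPM + 1) over 0.99) and were summed to 2 libraries per group. The mESC columns of a group also passed 0.99, but summing them would leave 1 library per group and no adjusted p, so they were kept apart. Pairs over 0.99 differed by more than counting noise, with a chi-square per degree of freedom of 3.08 and 1.99 in mESC and 3.19 to 9.49 at 24h. Replicates are not stated to be separate collections, so p-values measure the spread between libraries. edgeR 4.0.16 (TMM, filterByExpr, quasi-likelihood test, Benjamini-Hochberg over all genes tested, threshold 0.05) was run per table, and in 1 fit of the 18 libraries of 18h, 20h and 22h for time. SE is the log2 fold change over the root of F. CPM use TMM over those 18 libraries, or over the own table for 24h and mESC. DESeq2 1.42.0 and other alternatives are given at the end, and scripts were tested on simulated data. Promoter peaks overlap 2000 bases on either side of a gene's start.

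The members, gene lists and tests were chosen with earlier results of these data known. Named genes are the listed receptors and nucleoporins that carry a result, the members past the threshold in a comparison (up to 8 per direction) or the 5 with the smallest p, and the 3 strongest peaks. Genes singled out for a shared peak, a distance or a motif were chosen after their values were seen. Of the members, 26 overlap another gene, 19 of them one on the other strand.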

Additional observations from a re-analysis of the deposited data

How the results depend on the processing

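Kpna2 was called higher at 22h than at 18h in KO embryos under every alternative run, with log2 fold changes of 2.78 to 3.20. Of 803 values of named genes under the alternatives, 802 kept their direction; Kpna7 at 24h turned to 1.45 without control replicate 1, and ranged from -4.22 to 1.45 over the libraries left out. At 24h DESeq2 called 3 members higher (Kpna1, Nup160, Ranbp2) and 3 lower (Ipo11, Kpna4, Nup43), where it called 521 of all genes higher and 793 lower. Each of the 3 lower calls rested on 1 control library. Kpna4 had 1 and 0 counts in KO and 0 and 1550 in control, and Ipo11 and Nup43 had 1 count in the other control library. The columns kept apart gave 3 higher, but this counts near-identical columns as replicates. For control 22h over 18h, leaving out a library gave 0 to 1 higher and 0 to 1 lower (Xpo1), and control libraries alone gave 1 higher (Kpna2). For control 20h over 18h, lower calls were 0 with a replicate block, 0 to 1 without a library, and 0 from control libraries alone. For KO 22h over 18h, DESeq2's size factors gave 1 higher (Kpna2) and 1 lower (Kpna3), and leaving out a library gave 1 to 4 higher and 0 to 1 lower (Tpr). The cause of these differences was not tested, beyond there being fewer samples in a fit. Apart from the DESeq2 test, the share of all genes called under these alternatives is not given here. The counts of members therefore cannot be set against it. Where 1 library remained in a group, it was assumed to vary like the others. Same-numbered columns did not deviate together (r from -0.195 to 0.147), so the block rests on a shared number only; with it Xpo1 in control at 20h over 18h reached an adjusted p of 0.0524 and Ranbp1 in KO at 22h over 18h 0.0602, and Nup188 was called higher in KO in place of Ranbp1. H3K4me3 promoter peaks were found at 40 members within 1000 bases, 43 within 5000 bases and, from RefSeq starts, 34 of 35; no member peak passed a fold of 1.5, the RefSeq starts being chosen after seeing the data, as was the averaged KO effect. Chromatin values have no replicates, and at 24h the number of calls depended on the tool.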
